A study of Mus musculus with 10 samples.

Results

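Loss of Il4 was examined in tumour-infiltrating helper T cells from mice whose genotype deletes Tgfbr2, which encodes a TGF-beta receptor chain, in CD4 cells, by setting the IL4-/-KO genotype against the KO genotype over all named genes. The 2 genotypes were labelled on 6 of the 10 libraries in the series, which stood for 4 of its 8 replicates. Both came from 23-week-old C57BL/6 mice that carry the PyMT transgene and develop breast tumours. KO mice had floxed Tgfbr2 alleles (Tgfbr2 fl/fl) and the ThPOKCre transgene, whose recombinase is active in cells of the CD4 lineage. IL4-/-KO mice carried the same floxed alleles and the same Cre and were in addition Il4-/-, an allele that is written without any restriction to a cell type. By genotype, both sides of the comparison therefore carry the Tgfbr2 deletion in their CD4 cells. The WT and IL4-/- mice of the series, used here only for a second Il4 comparison, had the floxed alleles without the Cre. CD4+CD25- T cells were sorted from digested tumours. Each genotype had 2 replicates. Each KO replicate had a first and a repeat library prepared from the same RNA, and these were averaged before testing. No label states whether the 2 replicates of a genotype were separate mice. P-values thus rest on how far these samples scatter, a scatter that may be technical only.

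IL-4 is the cytokine that starts and feeds the type 2 helper programme. It binds a receptor of the IL-4 receptor alpha chain (Il4ra) and the common gamma chain (Il2rg), whose kinases Jak1 and Jak3 phosphorylate Stat6, and Stat6 then drives Gata3 and further Il4 expression. TGF-beta signalling through Tgfbr2 restrains the differentiation of helper T cells. The comparison asks what differs in Tgfbr2-deleted helper cells when the mouse cannot make IL-4.

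The IL4-/-KO libraries held 31996804 and 31285329 recovered reads. Of the KO libraries, the first pair held 17181221 and 17204442 and the repeats 29715400 and 28003231. T cell genes were abundant in all 6 libraries. Cd3e ran from 19433 to 33606 normalized counts and Cd4 from 24236 to 40172, while Cd8a ran from 25 to 133. Summed, the CD8 genes Cd8a and Cd8b1 ran from 234 to 524. One library was unlike the rest, the repeat of KO replicate 2. It had 12459 genes detected, fewer than any other library, and 6.70% of its reads in its 10 highest genes. Its chi-square per degree of freedom against its own first library was 205, more than the 66.1 of the other pair from one RNA, the 110 between the first KO libraries or the 145 between the IL4-/-KO libraries. RNA of other cell types was present in every library. The 22 listed genes of mammary and tumour epithelium summed to 18534 and 52224 normalized counts in IL4-/-KO and to 85265 to 169165 in KO.

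No gene passed the main test, limma with Benjamini-Hochberg adjustment over 14473 genes, in the comparison of IL4-/-KO with KO (0%). The smallest adjusted p was 0.203. At an unadjusted p under 0.05 stood 1687 genes. Of these, 1234 were higher in IL4-/-KO (8.53% of genes tested) and 453 were lower (3.13%). The quasi-likelihood test of edgeR called 0 genes and had 1470 at an unadjusted p under 0.05. DESeq2 called 386 genes, 281 higher (1.94%) and 105 lower (0.725%), and gave no adjusted p for 562. With the repeat KO libraries alone, limma again called 0 genes and had 2000 at an unadjusted p under 0.05, and without the repeat library of KO replicate 2 it called 0 and had 1643. The unadjusted count fell or rose with the replicate that was left out, and such fits leave 1 sample in a genotype. How much of the count single replicates carried was not tested. In 2345 genes (16.2%) both IL4-/-KO libraries lay above all 4 KO libraries, and in 1789 (12.4%) both lay below, which is what is meant by libraries that do not overlap.

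Differences between the genotypes moved with the base composition and length of the transcripts. Across 14189 genes, the Spearman correlation of the log2 fold change was -0.47 with transcript GC content and 0.25 with transcript length. Genes are not independent replicates, so these are descriptions. In the 3548 genes with the lowest GC content the median log2 fold change was 0.79, and 858 genes were higher and 24 lower at an unadjusted p under 0.05. In the 3547 with the highest GC content the median was -0.46, with 22 higher and 224 lower. The same property separated libraries of one genotype and, for KO replicate 2, of one RNA. Its correlation was 0.47 with the difference between KO replicates 2 and 1 and 0.31 between IL4-/-KO replicates 2 and 1. Between the repeat and first library it was 0.39 for KO replicate 2 but 0.08 for KO replicate 1. In the comparison of IL4-/- with WT it was -0.05. With the GC trend removed, 598 genes were higher and 594 lower at an unadjusted p under 0.05, and with the length trend removed 731 and 739. The median log2 fold change of all genes tested was -0.07, and -0.08 and -0.14 with the GC and length trends removed. With the repeat KO libraries alone it was 0.12 and with the first alone -0.03. List medians below stand beside these values. The part of GC content in any single gene's difference was not tested, so values with the trend removed are given beside results. Of 100 named genes with a GC content, 32 had a log2 fold change that was smaller by over 1.5 times or of the other sign with the trend removed, and 2 had a larger one by over 1.5 times.

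**Figure D1:**
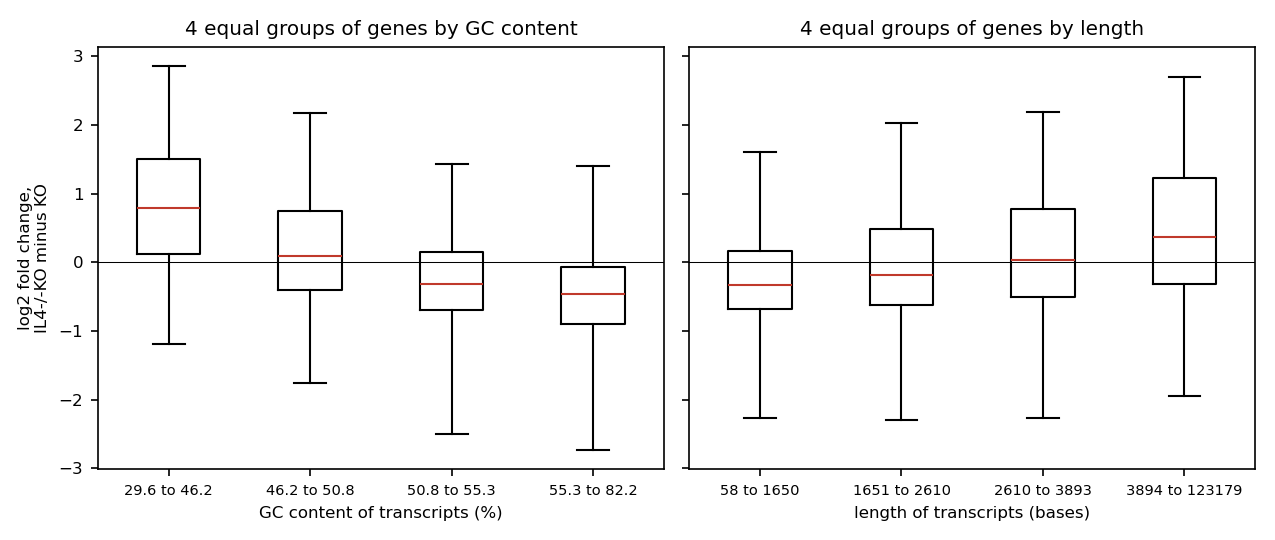
Log2 fold change of IL4-/-KO over KO in 4 equal groups of genes by the GC content (left, percent) and length (right, bases) of their transcripts. Boxes span the middle 50% of genes, red lines are medians and whiskers run from the 5th to the 95th percentile. The median goes from 0.79 in the group of lowest GC to -0.46 in the highest, and from -0.34 in the shortest to 0.36 in the longest transcripts.

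Il4 itself (chromosome 11, 53602982 to 53618669, mm10) was lower in IL4-/-KO but not at 0. It had 98.7 and 39.7 normalized counts in IL4-/-KO. In KO it had 426 and 352 in the first and repeat library of replicate 1, and 523 and 236 in those of replicate 2. KO values below are given in that order. The libraries of the 2 genotypes did not overlap. This gave a log2 fold change of -2.60 with an SE of 0.80 (2 replicates per genotype, limma adjusted p = 0.343), and -2.18 with the repeat KO libraries alone. The counts are per gene and do not say which exons the reads came from, so reads at Il4 do not check the allele. Tgfbr2, deleted on both sides, had 7762 and 8205 normalized counts in IL4-/-KO and 5828, 7632, 5803 and 9442 in KO. WT had 7876 and 7894 and IL4-/- 13816 and 12544. The KO range thus included the WT values, and a whole-gene count does not check deletion of the floxed part.

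The promoter of Il4 is shown because IL-4 is the cytokine removed and because STAT6 prefers DNA elements in which TTC and GAA stand 4 bases apart, called the STAT6 spacing here. A second spacing, TTCNNNGAA, is used by other STAT factors. Both motifs read the same on either strand, and a match in one can overlap a match in the other. Windows run from 250 bases before to 50 bases after a transcript start, from RefSeq annotation of GRCm38.p6. The window of Il4 at chr11:53618616-53618915, minus strand, held 1 match to the STAT6 spacing, in capitals.
Il4: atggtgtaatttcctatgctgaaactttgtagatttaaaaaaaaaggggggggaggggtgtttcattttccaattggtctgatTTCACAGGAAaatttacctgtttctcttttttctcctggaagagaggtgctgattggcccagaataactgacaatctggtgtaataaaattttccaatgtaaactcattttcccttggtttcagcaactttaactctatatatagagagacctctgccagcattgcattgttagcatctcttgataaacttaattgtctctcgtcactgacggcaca
The capitals begin 167 bases before the transcript start. The STAT6 spacing occurred in 2284 of all 32851 promoter windows (6.95%). In the type 2 helper list it occurred in 2 of 17 windows, those of Il3 and Il4.

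The other type 2 cytokines differed between replicates of one genotype. Il5, which supports eosinophils, had 681 and 15.2 normalized counts in IL4-/-KO and 538, 512, 4988 and 2332 in KO. IL4-/-KO replicate 1 lay within the KO range and replicate 2 far below it. The log2 fold change was -3.72 ± 1.93 (SE, limma adjusted p = 0.515), and without IL4-/-KO replicate 2 it was -1.03. Il13, another type 2 cytokine, had 11.1 and 1.44 in IL4-/-KO and 5.88, 15.3, 118 and 375 in KO, so the libraries of KO replicate 2 alone were high. Areg encodes amphiregulin, a growth factor of type 2 and regulatory cells. It had 1324 and 352 in IL4-/-KO against 2737, 2679, 2247 and 2009 in KO, without overlap (log2 fold change -1.81 ± 0.74, limma adjusted p = 0.414).

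Genes of type 2 identity other than the cytokines did not lie on one side. Gata3, the lineage-defining transcription factor, had 5513 and 4985 normalized counts in IL4-/-KO and 3576, 2926, 5404 and 8642 in KO, and the ranges overlapped. Il1rl1, the receptor for IL-33, overlapped as well, with 1004 and 460 against 612, 1021, 1681 and 1075. Cd200r1, an inhibitory receptor, was higher in IL4-/-KO without overlap, at 2390 and 971 against 669, 641, 629 and 210 (log2 fold change 1.54 ± 0.55, limma adjusted p = 0.367, and 0.49 with the GC trend removed). Of the 14 tested members of the type 2 helper list, 7 were higher and 7 lower, with a median log2 fold change of -0.25 beside -0.07 for all genes tested. Of the 14 members, 2 were higher and 2 lower without overlap, beside 16.2% and 12.4% of all genes tested. Without IL4-/-KO replicate 1 the median was -1.07 and without IL4-/-KO replicate 2 it was 0.06.

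In the IL-4 receptor pathway the receptor chain Il4ra, the kinase Jak3 and the feedback inhibitors Socs1 and Cish had lower counts in IL4-/-KO, while the transcription factor Stat6 and Socs2, another feedback inhibitor, overlapped. Il4ra had 9331 and 7265 normalized counts in IL4-/-KO and 14847, 13717, 12315 and 14093 in KO, without overlap (log2 fold change -0.74 ± 0.36, limma adjusted p = 0.48, and -0.36 with the GC trend removed). Il2rg overlapped, from 36992 to 43454 in IL4-/-KO and from 32168 to 52259 in KO. Jak3 was lower without overlap (log2 fold change -0.88 ± 0.37, limma adjusted p = 0.424, and -0.41 with the GC trend removed), whereas Jak1 was higher without overlap (1.01 ± 0.54, adjusted p = 0.531). Stat6 had 7502 and 7946 in IL4-/-KO and 7838, 7396, 9239 and 8187 in KO, and the ranges overlapped.

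Socs1 and Cish encode feedback inhibitors that cytokine signals through STAT factors induce. Socs1 had 3648 and 2306 normalized counts in IL4-/-KO and 6635, 7276, 4856 and 9078 in KO (log2 fold change -1.26 ± 0.42, limma adjusted p = 0.365). Cish had 5173 and 3407 against 6270, 8114, 7191 and 14367 (-1.07 ± 0.37, adjusted p = 0.365). Neither gene's libraries overlapped, and with the GC trend removed the log2 fold changes were -0.82 and -0.69. Socs2, of the same family as Socs1, had 2292 and 2077 against 2793, 2476, 1412 and 1339. Batf, an AP-1 family factor of effector T cells, overlapped, with 3746 and 3357 against 12548, 11122, 3522 and 6502 (-1.12 ± 0.44). In the whole list 14 of 18 members were lower and 4 higher, and the median log2 fold change was -0.43. The median lay between -0.67 (without IL4-/-KO replicate 1) and -0.21 (without IL4-/-KO replicate 2) in all 25 alternatives. Of the list's 18 members, 4 were lower without overlap, beside 12.4% of all genes tested. The promoter windows of 16 of its 18 genes were found, 18 windows in all, and 0 held the STAT6 spacing. TTCNNNGAA occurred in 3 of the 18, beside 8.30% of all windows. These were windows of Bcl6 and Cish, and a Bcl6 window held more matches than that of Cish. The Cish window at chr9:107296409-107296708, plus strand, is shown. It held 2 such matches, in capitals, at the transcript start.
Cish: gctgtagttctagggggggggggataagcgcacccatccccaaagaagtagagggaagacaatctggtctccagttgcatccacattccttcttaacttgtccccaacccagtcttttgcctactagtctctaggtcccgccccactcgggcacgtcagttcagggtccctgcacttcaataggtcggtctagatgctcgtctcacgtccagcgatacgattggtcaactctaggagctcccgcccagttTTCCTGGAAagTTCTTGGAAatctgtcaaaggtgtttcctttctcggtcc
A match describes letters in a window and is not evidence of binding.

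The 12 genes higher in IL4-/-KO with the smallest p, at least 50 normalized counts and no overlap were led by Arhgap5, which encodes a GTPase-activating protein. Arhgap5 (chromosome 12, 52503972 to 52571975) had 1904 and 1715 normalized counts in IL4-/-KO and 54.4, 246, 172 and 6.62 in KO. This gave a log2 fold change of 3.95 ± 0.41 (SE of 2 replicates per genotype, limma adjusted p = 0.203). It was 5.38 with the repeat KO libraries alone and 1.77 with the GC trend removed. Slc4a7, a sodium bicarbonate cotransporter, had 2979 and 2684 against 857, 499, 780 and 476 (2.11 ± 0.31). Top2b, a DNA topoisomerase, had 7465 and 6461 against 1558, 1371, 1019 and 804 (2.59 ± 0.40, and 0.69 with the GC trend removed). In all 3 genes the lowest IL4-/-KO library was more than any KO library. Arfgef3 was listed at 0 in 3 of the 4 KO libraries and at 3.94 in the first library of replicate 2, against 108 and 245 in IL4-/-KO. Its log2 fold change of 6.57 depended on the pseudocount and was 3.98 with a pseudocount of 10.

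The other 8 genes of this group had log2 fold changes from 1.95 in Usp9x, a deubiquitinase, to 4.08 in Zfp729a, a zinc finger gene. Between them were Nbeal1 (3.84), Chm (3.23), which encodes a Rab escort protein, and Fcho2 (2.71), an endocytic adaptor. Sh3bgrl (2.58), Tsc22d2 (2.30) and Cmah (2.29), the hydroxylase that makes the sialic acid Neu5Gc, completed the set. All but Arhgap5 had a limma adjusted p of 0.321. With the GC trend removed, 8 of the 12 had a log2 fold change smaller by over 1.5 times, and the 12 ran from 0.69 to 6.5. The genes were chosen on this contrast, so their values are a description. Transcripts of the 12 had a median GC content of 40.3% and a median length of 7681 bases, beside 50.8% and 2610 bases over all genes tested.

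The 11 genes named as lower in IL4-/-KO were led by Csrnp1, an immediate-early nuclear protein. Csrnp1 had 3526 and 3651 normalized counts in IL4-/-KO and 13308, 11566, 11638 and 20508 in KO (log2 fold change -1.98 ± 0.35). Pik3ip1, an inhibitor of PI3 kinase in T cells, had 758 and 860 against 2608, 3177, 2342 and 3270 (-1.82 ± 0.33). In both genes the IL4-/-KO replicates lay close together, below every KO library. Hilpda, a hypoxia-inducible lipid droplet protein, had 2546 and 1293 against 8580, 7319, 7556 and 6268 (-2.03 ± 0.38). Gadd45b had 4690 and 2999 against 22554, 20010, 11587 and 22052 (-2.33 ± 0.49), and Gadd45g, of the same stress-response family, had 1201 and 698 against 6172, 4119, 2305 and 5247 (-2.27 ± 0.47). Cdkn1a, the cell cycle inhibitor p21, had 2178 and 2615 against 12694, 9750, 5991 and 7874 (-1.89 ± 0.40). Ecm1, a secreted protein that type 2 helper cells also express, had 1106 and 602 against 3721, 3118, 3950 and 4993 (-2.26 ± 0.42). All had a limma adjusted p of 0.321.

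The remaining 4 were Tsc22d3, a glucocorticoid-induced leucine zipper protein (-1.51 ± 0.32), Fam110a (-1.88 ± 0.36), Emd (-2.61 ± 0.55), which encodes emerin of the nuclear envelope, and Fgb. Fgb, the fibrinogen beta chain and a liver gene by its textbook expression, had 31.2 and 21.7 normalized counts against 5232, 4191, 616 and 379, so KO replicate 1 was well above KO replicate 2. Transcripts of the 11 lower genes had a median GC content of 56.0% and a median length of 1552 bases. None of the 11 was smaller by over 1.5 times with the GC trend removed, where they ran from -6.56 to -1.41. All 12 higher and 11 lower genes passed DESeq2 and none passed limma. They had been chosen for a small limma p and no overlap in the same libraries, so passing DESeq2 is no separate evidence.

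**Figure D2:**
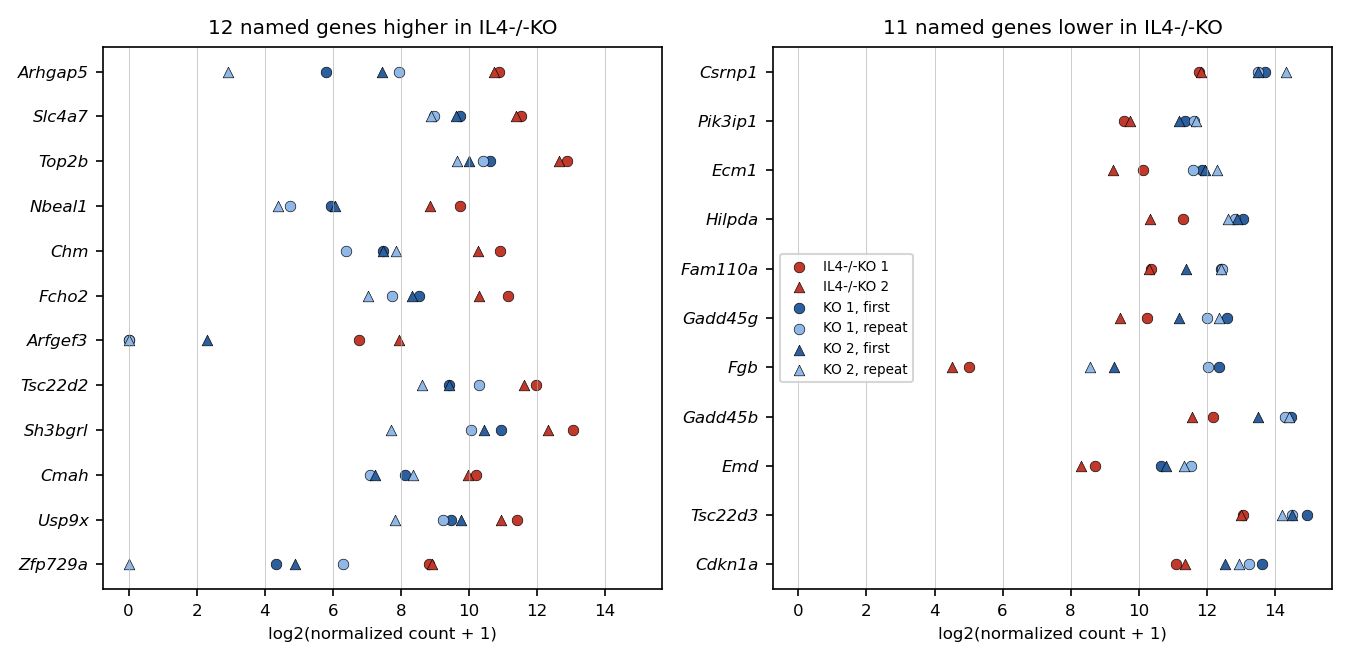
Levels of 12 genes higher (left) and 11 lower (right) in IL4-/-KO, named for the smallest p, on the log2(normalized count + 1) scale, 1 point for each of the 6 libraries. Red points are the IL4-/-KO libraries, dark blue the first and light blue the repeat KO libraries, and circles and triangles are replicates 1 and 2. By the rule that chose the genes, red points lie to the right of all blue points on the left side and to their left on the right side, and Arfgef3 is at 0 in 3 KO libraries.

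For Pik3ip1 the promoter window is shown as the 1 window among the 20 of the named lower genes that held the STAT6 spacing. It lies at chr11:3330481-3330780, plus strand, and the capitals begin 11 bases after the transcript start.
Pik3ip1: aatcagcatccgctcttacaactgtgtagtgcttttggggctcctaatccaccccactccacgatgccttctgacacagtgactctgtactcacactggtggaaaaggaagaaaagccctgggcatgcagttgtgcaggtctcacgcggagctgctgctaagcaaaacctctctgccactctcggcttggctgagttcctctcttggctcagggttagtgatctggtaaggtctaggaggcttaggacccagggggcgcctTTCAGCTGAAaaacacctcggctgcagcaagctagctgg
Of the 11 windows of the named higher genes, 1 held the STAT6 spacing, that of Sh3bgrl. TTCNNNGAA occurred in 3 of the 20 windows of lower genes and in 2 of the 11 of higher genes.

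Genes of glycolysis and the hypoxia response were lower in IL4-/-KO nearly throughout their list. Of 22 members, 21 were lower, and the libraries did not overlap for 16, where 12.4% of all genes tested were lower in this way. The median log2 fold change was -1.01. It was -1.06 with the repeat KO libraries alone, -1.03 with the length trend removed, -0.83 with the GC trend removed, and between -1.06 and -0.78 in all 25 alternatives. No member passed limma or DESeq2, and 5 had an unadjusted p under 0.05. The lactate dehydrogenase gene Ldha had 36313 and 40354 normalized counts in IL4-/-KO and 94840, 94313, 76011 and 86767 in KO (log2 fold change -1.20 ± 0.53, SE, limma adjusted p = 0.438). Aldoa, an aldolase, had 25186 and 38258 against 52433, 58381, 58286 and 75675 (-0.97 ± 0.56, adjusted p = 0.551). The glucose transporter gene Slc2a1 had a log2 fold change of -1.22 ± 0.51 and Pgk1, a glycolytic kinase, one of -1.02 ± 0.41. Hk2, the inducible hexokinase, had 251 and 85.2 against 1157, 962, 372 and 645 (-2.32 ± 0.79, adjusted p = 0.365). The lactate exporter gene Slc16a3 had 1876 and 1140 against 3900, 3503, 2770 and 4680. The member that was not lower was Hif1a, the hypoxia-inducible factor, with 30998 and 26927 against 30605, 29990, 12485 and 4449. Its ranges overlapped. In sorted cells, fewer cells of a type and less RNA per cell cannot be told apart in any of these lists.

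Transcription factors and receptors of T cell activation were lower in 20 of 24 members. Of the 24, 11 were lower without overlap, beside 12.4% of all genes tested. The median log2 fold change was -0.75. DESeq2 called 4 members as lower, beside 0.725% of all genes tested, and limma called 0. The AP-1 gene Junb had 54360 and 45215 normalized counts in IL4-/-KO and 119125, 122973, 82920 and 195266 in KO (log2 fold change -1.39 ± 0.51, limma adjusted p = 0.376, and -0.90 with the GC trend removed). Fos, its partner, had 5645 and 8735 against 31827, 30769, 25913 and 38939 (-2.18 ± 0.95, adjusted p = 0.433). Egr1, an immediate-early factor, had 2300 and 4546 against 8129, 8963, 9667 and 11670. Nfkbia and Nfkbid, which encode inhibitors of NF-kappa-B and are induced by it, had log2 fold changes of -1.57 ± 0.48 and -1.61 ± 0.38. Nr4a1, an orphan receptor induced by antigen, had 17988 and 14443 against 25733, 26077, 42774 and 68195, also without overlap. Tnfrsf4, the costimulatory receptor OX40, had 15168 and 7778 against 38281, 35148, 18381 and 23014. The list median was -0.83 with the repeat KO libraries alone and -0.81 with the GC trend removed, but -0.30 without IL4-/-KO replicate 2. 

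Factors of tissue repair and vessel growth were lower in 18 of 22 tested members and higher in 3, while 1 had a log2 fold change of 0. The median was -0.98, and -0.53 with the first KO libraries only and -0.64 without KO replicate 2. For 7 lower members the libraries did not overlap, beside 12.4% of all genes tested. Furin, the protease that matures TGF-beta among other precursors, had 4769 and 5896 normalized counts in IL4-/-KO and 24014, 25623, 10293 and 13468 in KO (log2 fold change -1.70 ± 0.47, limma adjusted p = 0.331). Hbegf, a growth factor of the EGF family, had 302 and 257 against 769, 628, 4267 and 2825 (-2.49 ± 0.95, adjusted p = 0.389). Mmp9, a gelatinase, had 4714 and 3726 against 3205, 3473, 4661 and 11747, and the ranges overlapped.

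Some lists of other cell types were also lower in IL4-/-KO, and others were not. In 18 of 21 tested epithelial genes the counts were lower in IL4-/-KO. Of the 21, 10 were lower without overlap, beside 12.4% of all genes tested. The list median was -1.45. It was -0.41 without IL4-/-KO replicate 1, -2.13 without IL4-/-KO replicate 2 and -0.70 without KO replicate 2. Krt19, a keratin, had 2334 and 2249 normalized counts in IL4-/-KO and 25486, 23406, 13679 and 19659 in KO. Krt18 had 2981 and 6236 against 12363, 10997, 28945 and 31927, and Krt7 796 and 2270 against 5898, 6110, 9168 and 12461. The cadherin gene Cdh1 had 1110 and 2853 against 4062, 3641, 6307 and 5950. The milk protein gene Csn2 was at 0 in all 6 libraries. All 8 tested neutrophil genes were lower, with a median of -2.52, though Mmp9, which is on this list too, had either sign across the alternatives. The 12 listed summed to 5827 and 5317 in IL4-/-KO and to 7081 to 13965 in KO. Mmp9 made up most of these sums in IL4-/-KO and in KO replicate 2. Without it the other 11 summed to 1114 and 1591 in IL4-/-KO and to 10666, 10493, 2420 and 1461 in KO, which overlapped. Retnlg, a granulocyte gene, had 0.742 and 2.89 against 931, 938, 135 and 70.0, and S100a8 had 12.6 and 121 against 1844, 2210, 318 and 115, so KO replicate 1 held most of it. The neutrophil median was -0.95 without KO replicate 1, -4.97 without KO replicate 2, -1.56 without IL4-/-KO replicate 1 and -4.33 without IL4-/-KO replicate 2. Macrophage genes had a median of 0.45, which was -0.09 without KO replicate 1, 0.90 without KO replicate 2, -0.07 without IL4-/-KO replicate 1 and 1.30 without IL4-/-KO replicate 2. Among them Ccr2, which T cells also express, was at 1.53 ± 0.57 (0.03 with the GC trend removed) and Cd14 at -2.76 ± 1.39. The part of epithelial and neutrophil RNA in the glycolysis, activation and repair lists was not tested.

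**Figure D3:**
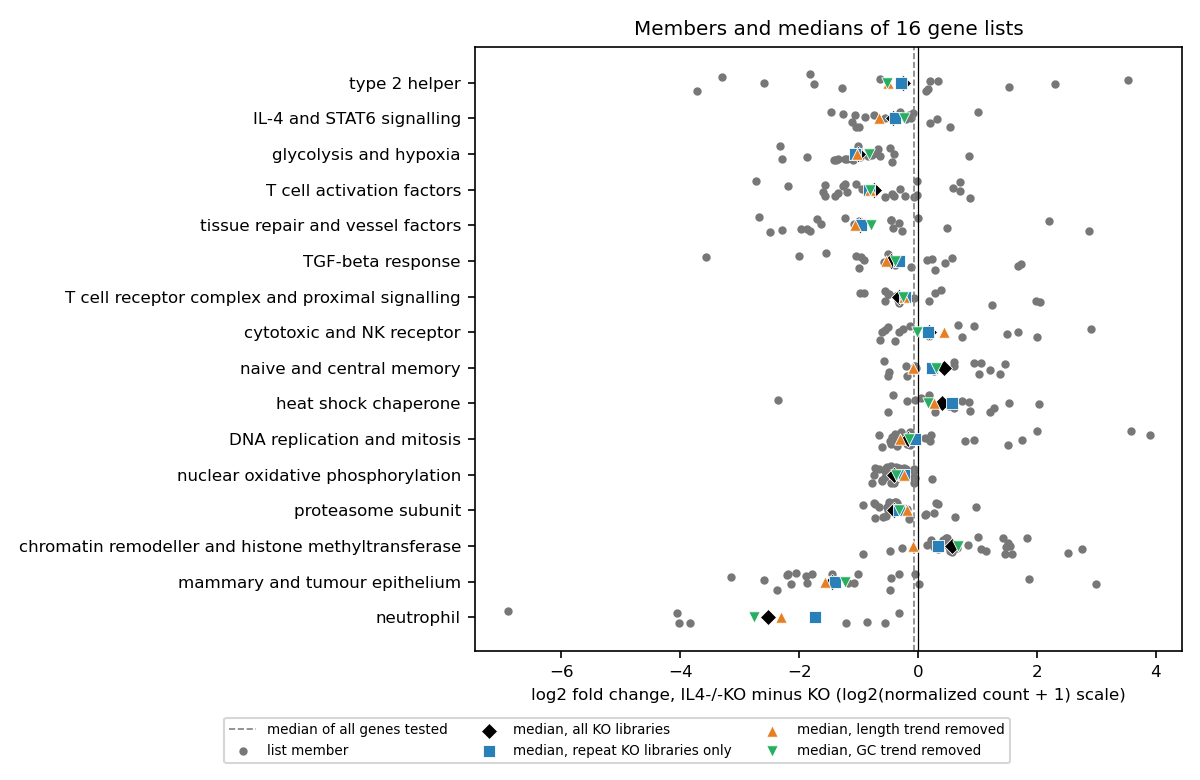
Log2 fold changes of IL4-/-KO over KO for the tested members of 14 lists of cell states and 2 lists of other cell types. Grey points are members, and larger symbols are list medians with all KO libraries (black), with the repeat KO libraries only (blue) and with the trend on transcript length (orange) or GC content (green) removed. The glycolysis medians lie between -1.06 and -0.83, while the chromatin list goes from 0.57 to -0.09 with the length trend removed. The median of all genes tested goes from -0.07 to -0.14 with that trend removed.

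Lists of protein and energy housekeeping were lower by less. The median of all genes tested was -0.07, and 0.12 with the repeat KO libraries alone and -0.14 with the length trend removed. Nuclear genes of oxidative phosphorylation had lower counts for 32 of 33 members, and their median, -0.40, was -0.24 with the repeat KO libraries alone or with the length trend removed. Sdhb, a subunit of complex II, had 4199 and 4214 normalized counts in IL4-/-KO and 8762, 6891, 6364 and 6409 in KO (log2 fold change -0.75 ± 0.28, limma adjusted p = 0.388, and -0.48 with the GC trend removed). Proteasome subunits were lower in 25 of 32, without overlap in 17 (beside 12.4% of all genes tested). Their median was -0.40, and -0.19 with the length trend removed, and Psmb2, a catalytic core subunit, was at -0.92 ± 0.32. Cytosolic ribosomal proteins were lower in 35 of 38, with a median of -0.30 that was -0.09 with the length trend removed. These lists hold short transcripts, with median lengths of 744, 1337 and 834 bases.

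The opposite pattern held for chromatin remodellers and histone methyltransferases, whose transcripts had a median length of 6808 bases. Of 29 members, 26 were higher, without overlap in 12 (beside 16.2% of all genes tested), and DESeq2 called 2 as higher (beside 1.94%). Ash1l, a histone methyltransferase, had 3016 and 2169 normalized counts in IL4-/-KO and 651, 531, 355 and 128 in KO (log2 fold change 2.76 ± 0.55, limma adjusted p = 0.321). Setd2, which trimethylates histone H3, had 2386 and 1340 against 387, 354, 259 and 266 (2.52 ± 0.55), and Ep300, an acetyltransferase, had 2700 and 2478 against 473, 1628, 458 and 969 (1.58 ± 0.36). The list median was 0.57. It was -0.09 with the length trend removed, 0.34 with the repeat KO libraries alone and 1.28 with the first. For all genes tested the median was -0.07, and in these settings, in the same order, -0.14, 0.12 and -0.03.

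Of 18 heat shock chaperones, 13 were higher. The list median was 0.41, with a range of 0.17 to 0.68 over the 25 alternatives. Hsp90aa1, the inducible HSP90, had 37119 and 24957 normalized counts in IL4-/-KO and 7824, 10751, 5959 and 6068 in KO (log2 fold change 2.03 ± 0.45, limma adjusted p = 0.321). The mitochondrial chaperone gene Hspd1 was at 1.20 ± 0.36. Endoplasmic reticulum stress genes had a median of -0.28, with 12 of 20 lower, among them Herpud1 (-0.80 ± 0.33) and Ppp1r15a (-1.19 ± 0.41), while the chaperone gene Hsp90b1 was at 1.54 ± 0.57 (0.60 with the GC trend removed). Genes of cholesterol and fatty acid synthesis had 16 of 23 lower and a median of -0.40 (-0.08 with the first KO libraries only), including the farnesyl diphosphate synthase gene Fdps (-0.79 ± 0.31). The BCL2 family list had 10 of 14 lower and a median of -0.52, which was -0.25 with the repeat KO libraries alone (0.12 for all genes tested). In it Bcl2l11, which encodes the death factor BIM, was at -0.92 ± 0.41 and Bcl2, a survival factor, at 1.18 ± 0.54 (0.61 with the GC trend removed).

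Some cytotoxic and NK receptor genes were higher in IL4-/-KO. Klrk1, the activating receptor NKG2D, had 2587 and 4752 normalized counts in IL4-/-KO and 640, 255, 747 and 217 in KO, without overlap (log2 fold change 2.91 ± 0.59, limma adjusted p = 0.321). It was 1.62 with the GC trend removed. Gzma, encoding granzyme A, had 6835 and 4112 against 2191, 1597, 2592 and 1117, also without overlap (1.5 ± 0.41, adjusted p = 0.331, and 0.80 with the GC trend removed). Klrd1, or CD94, had 1126 and 1230 against 416, 348, 588 and 111, and its log2 fold change of 1.68 was -0.10 with the GC trend removed. The list as a whole did not lie on one side, with 9 of 17 higher and a median of 0.19 that was 1.18 without KO replicate 1 and -0.63 without KO replicate 2.

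Other helper lists were split, and leaving out 1 replicate turned the sign of the type 1, type 17, regulatory, follicular and checkpoint medians. The type 1 helper list had 12 of 20 members higher and a median of 0.11, with Tnf at -1.30 ± 0.44 and Stat4, which transmits IL-12, at 1.33 ± 0.59 (0.44 with the GC trend removed). The type 17 helper list had 10 of 17 lower and a median of -0.35. Its chemokine receptor gene Ccr6 had 564 and 259 normalized counts in IL4-/-KO and 47.0, 13.6, 135 and 0 in KO (log2 fold change 3.05 ± 0.70, limma adjusted p = 0.321), while Ccl20, the ligand of that receptor, was at -4.54 ± 1.52. The regulatory T cell list had 10 of 17 higher and a median of 0.12. Nrp1, a coreceptor, had 4890 and 3724 against 1198, 695, 1607 and 1265 (1.87 ± 0.41, adjusted p = 0.321), and Nt5e, the ectonucleotidase CD73, had 2556 and 1114 against 254, 299, 633 and 658 (1.99 ± 0.51). The follicular helper list had a median of -0.02 and the checkpoint list one of -0.03, with Btla, an inhibitory receptor, at 1.33 ± 0.52 and Tox, a factor of chronic stimulation, at 1.36 ± 0.42. With the GC trend removed Btla was at 0.27 and Tox at 0.68.

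Of 16 naive and central memory genes, 9 were higher, and the list had a median of 0.43 that was -0.08 with the length trend removed, also -0.08 without KO replicate 1, and 0.94 without KO replicate 2. Foxp1, a quiescence factor, had 3531 and 2852 normalized counts in IL4-/-KO and 1436, 1423, 1224 and 1404 in KO (log2 fold change 1.21 ± 0.35, limma adjusted p = 0.331). Il7r, the receptor for IL-7, was at 1.37 ± 0.51 (0.15 with the GC trend removed) and S1pr1, which guides exit from lymph nodes, at 0.94 ± 0.35. The T cell receptor list had 12 of 18 lower and a median of -0.33. Of the 18, 8 were lower without overlap, beside 12.4% of all genes tested. Zap70, the proximal kinase, was at -0.98 ± 0.39, whereas Ptprc, or CD45, was at 2.05 ± 0.76 and Trat1 at 1.98 ± 0.62. With the GC trend removed the 3 were at -0.53, 0.90 and 1.06. Interferon-stimulated genes had a median of -0.13 that was 0.47 without KO replicate 1, -0.33 without KO replicate 2 and 0.01 without IL4-/-KO replicate 2. Among them Ifi44 was at 1.88 ± 0.71 (1.10 with the GC trend removed) and Isg15 at -0.82 ± 0.38. DNA replication and mitosis genes had 20 of 30 lower and a median of -0.17, which was 0.19 without KO replicate 1 and -0.37 without KO replicate 2. The proliferation marker Mki67, however, had 5100 and 2569 against 360, 511, 143 and 125 (3.90 ± 1.14, adjusted p = 0.338), and the kinesin gene Cenpe was at 3.58 ± 1.29.

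The TGF-beta response list was compared between genotypes that both carry the Tgfbr2 deletion by their labels. Of 18 members, 11 were lower and 7 higher, with a median of -0.45 that was 0.02 without KO replicate 2 and -0.19 without IL4-/-KO replicate 2. Tgfb1, the ligand, had 2650 and 2813 normalized counts in IL4-/-KO and 4046, 5153, 3644 and 9097 in KO, without overlap (log2 fold change -0.99 ± 0.28, limma adjusted p = 0.331). Tgif1, a corepressor of Smad factors, was lower without overlap, at 2989 and 1805 against 9771, 9263, 5245 and 4406 (-1.54 ± 0.48, adjusted p = 0.346). Ski, another corepressor, had the smallest p of the list (-2.0 ± 0.33, adjusted p = 0.321), yet it differed between libraries of one RNA. Beside 538 and 641 in IL4-/-KO, KO replicate 1 gave 3254 first and 587 on repeat, and KO replicate 2 gave 4448 and then 1350.

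The same Il4 loss where Tgfbr2 was intact, IL4-/- against WT, shares no library with the comparison above. In it limma called 0 of 14473 genes (0%), with 591 at an unadjusted p under 0.05, and DESeq2 called 29. All 12 named genes higher in IL4-/-KO were also higher in IL4-/- than in WT, with a median log2 fold change of 0.997 in place of 2.65. Of the 11 lower genes, 10 were also lower in IL4-/-, with a median of -0.68 in place of -2.03. Both sets were chosen for their values in IL4-/-KO against KO. A smaller median in another comparison follows from that choice alone, so these medians do not compare the sizes of the Il4 effects. Over all genes tested, 60.7% of those higher and 58.8% of those lower had the same sign in both. Differences in IL4-/- against WT had a correlation of 0.25 with transcript length, as in IL4-/-KO against KO. The WT libraries held 17121030 and 18479090 recovered reads and the IL4-/- libraries 28552482 and 33802781. The Il4-/- libraries were thus the deeper ones in both comparisons, and the part of depth in the shared signs was not tested. The glycolysis list had a median of -0.20 in IL4-/- against WT, the activation list -0.30, the repair list -0.07, the IL-4 and STAT6 list 0.02 and the type 2 list 0.08. For Il4 itself, WT gave 107 and 276 normalized counts and IL4-/- gave 97.2 and 75.4.

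Whether the Il4 effects differed was tested as an interaction, which called 0 genes with limma (0%). At an unadjusted p under 0.05 stood 510, DESeq2 called 35 and edgeR 0, with 559 at an unadjusted p under 0.05. Tgfb1 had the smallest interaction p of the lower genes that were named. In WT it had 1606 and 1851 normalized counts and in IL4-/- 3413 and 3881, so it was higher with Il4 loss where Tgfbr2 was intact and lower where it was deleted (interaction -2.06 ± 0.40 on the log2 scale, limma adjusted p = 0.988). Sbno2 (-2.23 ± 0.47) and Zc3h12a, the RNase Regnase-1 (-2.97 ± 0.63), had the same pattern. In the other direction stood Ncoa7 (2.44 ± 0.60), Ice2 (3.39 ± 0.80) and Arhgap5 (2.25 ± 0.58). Ncoa7 had 1272 and 747 in IL4-/-KO against 498, 583, 629 and 116 in KO, and 890 and 906 in IL4-/- against 2901 and 1736 in WT. Ice2 had 361 and 383 in IL4-/-KO, 94.1, 0, 40.7 and 53.0 in KO, 346 and 325 in IL4-/- and 340 and 602 in WT, so the KO libraries alone were low. None of these 6 differences passed the adjusted threshold of limma.

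**Figure D4:**
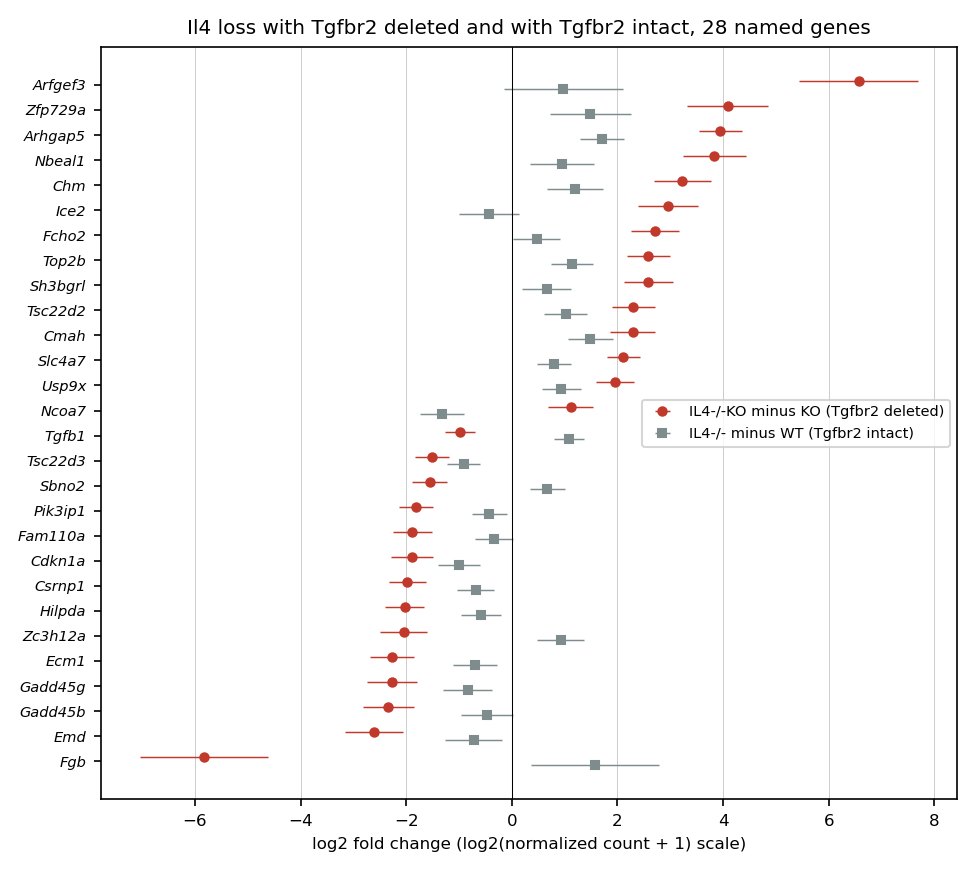
Log2 fold changes with SE bars for 28 named genes with Il4 loss where Tgfbr2 was deleted (red circles, IL4-/-KO minus KO) and where it was intact (grey squares, IL4-/- minus WT), 2 replicates per genotype. The genes chosen on the first comparison, 12 higher and 11 lower, have the same sign in the second except for Fgb, and Tgfb1, Sbno2, Zc3h12a, Ncoa7 and Ice2 also lie on opposite sides of 0.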

How the data were processed

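Per the labels' protocols, cells were sorted into Trizol and the SMART-Seq v4 kit, which uses no molecular identifiers, amplified the RNA before library preparation. Per the submitters' processing notes, bcl2fastq 2.18.0, STAR, the mm10 build and DESeq2 were used. The read counter, its annotation and its use of strand were not stated in those notes or the labels. The signal deposited by the authors was a read count per gene over a size factor shared by its library. Reads were recovered from it, since every value (100%) was a whole number of reads within 0.001. A 0 allows up to 3 reads, counting error only. Of 17370 entries, 7 without a gene name (at most 0.0205% of a library) were left out.

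First and repeat KO libraries were averaged. The test was limma 3.58.1 in R 4.3.3 on log2(normalized count + 1) with its variance trend, two-sided, for genes that reached 10 normalized counts in 2 or more of the 8 replicates. Adjustment was by Benjamini-Hochberg, with a threshold of 0.05. This scale understates the change of low genes. The spread was estimated over all 4 genotypes (residual degrees of freedom: 4). On the recovered reads, edgeR 4.0.16 and DESeq2 1.42.0 served as alternatives, and the pipeline was tested on simulated data. Removal of the GC trend was added after seeing the data. Transcript lengths, GC content and positions came from a GENCODE M21 annotation of mm10.

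The comparison, the gene lists (24 of cell states, 12 of other cell types, 601 of 625 genes found) and the tests were chosen with earlier results of these data known. Named genes were Il4, Il5, Il13 and Tgfbr2, then 12 per direction by smallest p with at least 50 normalized counts, no overlap between libraries and no predicted-gene name, up to 3 members per list, and 3 per direction from the interaction. Of the 12 lower genes, 1 is not reported here. Cd3e, Cd4, Gata3, Socs2, Il1rl1, Il4ra, Il2rg, Jak1, Jak3, Stat6, Ldha, Aldoa, Slc2a1, Hif1a, Fos, Junb, Egr1 and Csn2 were added for their roles after their values had been seen. Figures were drawn with matplotlib 3.10.9.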

Additional observations from a re-analysis of the deposited data

How the results depend on the processing

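Across 25 alternatives, limma and edgeR called 0 genes in each of the 3 comparisons wherever they were run, and DESeq2 called 386 in IL4-/-KO against KO, 29 in IL4-/- against WT and 35 in the interaction. With a replicate block the number called stayed 0, and 1402 genes had an unadjusted p under 0.05. The replicate numbers are only shared numbers with 2 pairs, and the differences between replicates 1 and 2 had a correlation of 0.21 between KO and IL4-/-KO across 14473 genes. Leaving out 1 replicate gave 662 to 2135 genes at an unadjusted p under 0.05, with the lowest without IL4-/-KO replicate 1 (662) and without KO replicate 2 (822). Where a genotype then had 1 sample, it was assumed to vary like the others.

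Many of the named genes were chosen for a small p or no overlap in these libraries, which by itself makes a change of sign unlikely. Of 101 genes with a log2 fold change, 97 had the same sign in every alternative that gave a value. The others were Tgfbr2 (-0.089 with the repeat KO libraries only and -0.41 with the length trend removed), Klrd1 (-0.10 with the GC trend removed), Ncoa7 (-0.0041 with the GC trend removed) and Mmp9. Mmp9 was at 0.12 with the first KO libraries only, 0.087 with KO replicate 2 from its first library, 0.043 with the GC trend removed, and -0.97 to 0.33 when 1 of the replicates compared was left out. DESeq2 put 44 of the 101 past its adjusted threshold, beside 1.94% of all genes tested as higher and 0.725% as lower. The choice of genes by a small p in the same libraries raises this count, so it is no separate evidence. Of 899 list medians in alternatives, 47 moved by more than the spread between replicate pairs. With 2 replicates a genotype, the spread between libraries and not the counting of reads limits what can be called.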
